A study of Mus musculus with 22 samples.

Results

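The mouse microRNAs mmu-miR-23a-3p, mmu-miR-23b-3p, mmu-miR-24-3p, mmu-miR-27a-3p and mmu-miR-27b-3p are the mature 3p products of a pair of related clusters. They were followed in hepatocytes given cyclosporin A (CsA), an immunosuppressant that inhibits calcineurin and is known to cause cholestasis. The members were chosen by name, and 5 of the 1247 miRNAs on the array carried these names. All 5 were well above background on 22 of 22 arrays and were among the 289 miRNAs tested. No member passed an adjusted p of 0.05 when both CsA doses were set against DMSO, at 24 h or at 48 h. miR-27b-3p came nearest, 1.56-fold lower in CsA at 48 h with an adjusted p of 0.0567 (limma). It passed once the arrays were blocked by experiment number, where 8.3% of tested miRNAs were called. With the slide as a block (adjusted p = 0.253), or with both blocks, it did not pass. CsA and DMSO arrays were spread unevenly over the slides at 48 h, so a slide block cannot fully part slide from treatment. The members of the a cluster, miR-23a-3p and miR-27a-3p, varied over the arrays far more than those of the b cluster. Their lowest signals also lay nearer the lowest value that the scale allows.

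A microRNA cluster is transcribed as a single primary transcript, from which hairpins are cut and each hairpin yields a mature strand that guides the silencing of messenger RNAs pairing with its seed. The a and b clusters carry the same series of miR-23, miR-27 and miR-24 hairpins on different chromosomes, so that the same seeds are supplied from separate loci. In liver, miR-27 is known for repressing genes of lipid metabolism such as Ppara, and the b cluster for restraining Smad genes of TGF-beta signalling in fetal liver cells. In human cells, miR-24 is known to repress cell-cycle genes such as E2F2 and MYC.

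In RefSeq's annotation of the GRCm38.p6 assembly the a cluster lay on chromosome 8, plus strand, from 84208518 to 84208921, with the hairpins Mir23a, Mir27a and Mir24-2 in 404 bases. No protein-coding gene spanned it, and the nearest gene downstream, Zswim4, lay 2021 bases beyond it. The b cluster lay on chromosome 13, plus strand, from 63300484 to 63301275, with Mir23b, Mir27b and Mir24-1 in 792 bases. It stood inside the protein-coding gene Aopep, which ran from 62964893 to 63326096. Mature sequences were matched by name in RefSeq for 4 of the 5 members and are shown because the array probes have to tell near-identical family members apart. Capitals mark the seed, bases 2 to 8 from the 5′ end.
miR-23a-3p: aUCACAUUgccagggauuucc
miR-27a-3p: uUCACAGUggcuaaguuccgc
miR-27b-3p: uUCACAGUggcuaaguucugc
miR-24-3p: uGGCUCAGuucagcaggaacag
miR-27a-3p and miR-27b-3p shared the seed UCACAGU and differed at 1 of 21 compared bases, C19U, counted from the 5′ end with the miR-27a-3p base first. Signal of one of them on the probes of the other was not tested. The miR-24-3p sequence was identical from Mir24-2 and Mir24-1, so its signal sums both loci and the source cluster cannot be told apart.

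The arrays were single-colour Agilent mouse miRNA arrays of primary hepatocytes from C57Bl6 mice. At 24 h there were 3 arrays of cells given 10 µM CsA, 2 of cells given 50 µM CsA and 5 of cells given 0.5% DMSO, the solvent. At 48 h there were 3 arrays at 10 µM CsA, 3 at 50 µM CsA and 6 with 0.5% DMSO. The labels number these arrays as biological replicates without saying whether the cells came from separate animals, so the p-values rest on the spread between these samples only. The record's design text speaks of 24 arrays, and the remaining ones were not analysed here. A treatment protocol in the labels names HepG2, a human liver line, whereas the other fields name primary mouse hepatocytes. The labels also give biotin as the label beside an Agilent miRNA labelling kit. Each sample description ends in an experiment number of 1, 2 or 3, which no source used here explains. Tests without this number as a block treated arrays of the same number as independent. The descriptions also carry an unexplained series tag, 48 on all 10 µM CsA arrays and 24 on all 50 µM CsA arrays. It divided the DMSO arrays into controls of either dose series. Unless stated, all DMSO arrays of a time served as controls for both doses. The arrays lay on 3 slides, and no spot was saturated. At 48 h slide 1 held 4 CsA arrays and 1 DMSO array, and slide 3 held 2 CsA and 3 DMSO arrays. Slide 2 held 2 DMSO arrays and none of CsA at that time. Slide and treatment were thus partly mixed at 48 h. The mean of the negative control spots stood at 215 on the array labelled replicate 3 of 10 µM CsA at 24 h and at 33.7 on 1 DMSO array at 48 h, and at 6.17 or less on the others.

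Hepatocyte markers were present as labelled. All 6 hepatocyte miRNAs listed, among them miR-122-5p, the dominant liver miRNA, were above background on 22 arrays. Their summed share of the signal ran from 7.43 to 11.7% in CsA and from 8 to 13.3% in DMSO at 48 h, and from 8.72 to 14.7% in CsA and from 7.66 to 15.5% in DMSO at 24 h. Of the other cell types' markers, miR-126-3p of endothelium was above background on 20 arrays, miR-155-5p of leukocytes on 16 and miR-145a-5p of mesenchymal cells on 12. Each was the single detected member of its list, out of 2, 5 and 5 markers, while miR-223-3p, miR-142-3p, miR-199a-3p and miR-214-3p were not above background on any array. None of the 2 erythroid and 5 other epithelial markers was detected. None of these markers was called in CsA against DMSO. The bulk RNA of a culture cannot tell fewer cells of a type apart from less RNA per cell.

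The sample names of the deposited value table and of the spot files did not match. When each of its 22 columns was set against every spot file, 6 proved to carry the values of their own sample and 16 those of a different one. The match was unambiguous, with a Spearman rho of 1 for each pair and of at most 0.968 for any second candidate. The 16 exchanges comprised 8 between CsA doses and 8 among the DMSO controls, and all 16 kept the time, the experiment number and the treatment. Comparisons with both doses pooled are therefore the same under either set of names. Comparisons of a single dose are given below under both, since the sources used here do not say which is right.

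Values are log2 scaled signals, that is the log2 of a probe's processed signal over the 75th percentile of the bright probes on its array, so a value of 0 lies at that percentile and a difference of 1 is a doubling. Each member is represented by the brightest of its probes, as a mean of 16 to 20 spots per array. Levels of different members are not compared, because probes differ in brightness for the same amount of RNA.

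miR-23a-3p ran from -3.28 to -0.39 over the 22 arrays with a median of -2.02. Its SD over the arrays was 0.72, and 24 of the 289 tested miRNAs had a larger one. miR-27a-3p ran from -4.01 to -0.24 with a median of -2.28 and an SD of 0.92, which 14 tested miRNAs exceeded. The b members moved within narrower limits. miR-23b-3p ran from -0.50 to 0.53 with an SD of 0.26, and 230 tested miRNAs had a larger SD. miR-27b-3p ran from -1.57 to -0.075 with an SD of 0.38, close to the 0.39 of miR-24-3p, which ran from -1.12 to 0.22. The median SD of the tested miRNAs was 0.41, so the a members lay above it and miR-23b-3p, miR-24-3p and miR-27b-3p below it. Signals were floored at -4.41 (log2), nearer to the lowest arrays of the a members than to those of the others. Whether this nearness widened the spread of the a members was not tested.

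**Figure D1:**
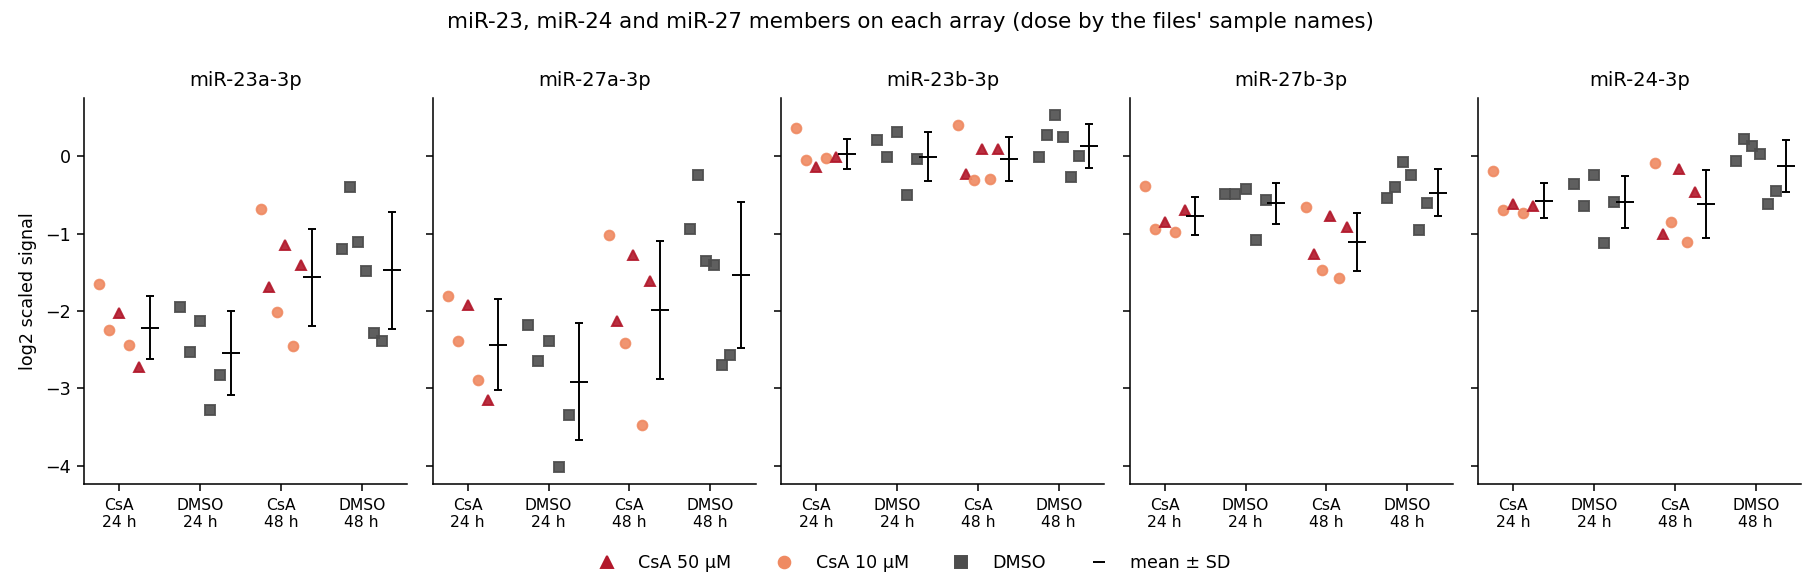
Log2 scaled signal of each member (panels) on every array, with CsA and DMSO side by side at 24 h and 48 h; each point is 1 array, and bars give the mean ± SD of the group. CsA symbols show the dose by the files' sample names. The a members spread widest within the groups, whereas miR-23b-3p stayed between -0.50 and 0.53 on all 22 arrays.

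The effect of CsA after 48 h was asked first, with 6 CsA arrays against 6 DMSO arrays. miR-27b-3p had a lowest, median and highest signal of -1.57, -1.09 and -0.66 in CsA, against -0.95, -0.47 and -0.075 in DMSO. The groups overlapped, but the mean was lower in CsA, -1.11 ± 0.38 against -0.47 ± 0.31 in DMSO (SD, n = 6 each). The fitted difference was -0.64 ± 0.18 (log2, SE; limma, adjusted p = 0.0567 over 289 miRNAs). It was not past the threshold. With the slide as a block it was -0.57 (adjusted p = 0.253). Within the slides that held both groups it was -0.67, from 4 CsA arrays and 1 DMSO array, and -0.36, from 2 and 3. Within experiments 1, 2 and 3 it was -0.49, -0.96 and -0.46, negative in each. With the experiment number as a replicate block the difference was -0.64 ± 0.16 and passed (limma, adjusted p = 0.0352), the 1 member of 5 called in that fit, where 8.3% of tested miRNAs were called. With both the number and the slide as blocks, no member was called.

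miR-24-3p, the product shared by both clusters, had a lowest, median and highest signal of -1.10, -0.66 and -0.086 in CsA at 48 h, against -0.61, -0.015 and 0.22 in DMSO. The groups overlapped, with 3 of the 6 CsA arrays below the lowest DMSO array. Its fitted difference was -0.49 ± 0.20 (SE; limma, adjusted p = 0.144), and it was negative within both slides, at -0.33 and -0.12, and within the 3 experiments, at -0.63 to -0.25. miR-23b-3p had -0.30, -0.070 and 0.41 in CsA, against -0.26, 0.13 and 0.53 in DMSO. The ranges were nearly the same, with a difference of -0.17 ± 0.16 (limma, adjusted p = 0.504).

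The a members showed wide and overlapping ranges at 48 h. miR-23a-3p had -2.46, -1.55 and -0.69 as lowest, median and highest signal in CsA, against -2.38, -1.34 and -0.39 in DMSO. Its difference was -0.092 ± 0.34 (limma, adjusted p = 0.89), and its sign turned with the slide as a block, to 0.15. Within the slides it was 0.56 and 0.58, higher in CsA, and within the experiments it ran from -0.39 to 0.40. miR-27a-3p had -3.47, -1.87 and -1.01 in CsA, against -2.69, -1.38 and -0.24 in DMSO. Its difference was -0.45 ± 0.45 (limma, adjusted p = 0.549), but within the slides it was 0.25 and 0.50, higher in CsA, and within the experiments it ran from -0.98 to 0.084. For both members, slide 1 set 4 CsA arrays against 1 DMSO array, which was of experiment 3, where the a members were lowest. Slide 3 set 2 CsA arrays against 3 of DMSO. The DMSO arrays of experiment 1 lay on slide 2, without CsA arrays. The values within slides therefore mix slide with experiment number.

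In all, 0 of the 5 members were called at 48 h, where 1.04% of all tested miRNAs were called, 1 higher and 2 lower. At an unadjusted p under 0.05 the counts were 2 of 5 members, miR-24-3p and miR-27b-3p, and 81 of 289. The calls turned on single arrays. Without replicate 1 of 10 µM CsA at 48 h, miR-27b-3p (-0.73, adjusted p = 0.0187) and miR-24-3p (-0.59, adjusted p = 0.0495) passed, as they did without replicate 5 of DMSO at 48 h (-0.74, adjusted p = 0.0132, and -0.59, adjusted p = 0.0433). Without replicate 2 of 50 µM CsA at 48 h, miR-27b-3p passed (-0.71, adjusted p = 0.029). The share of all tested miRNAs called in these fits is not given here, so these passes do not set the members apart from the rest. All 5 differences were negative, with a median of -0.45 over the members, beside a median of 0.10 over all 289. Scaling to the 75th percentile of all probes lowered the median of all tested miRNAs to -0.16 and that of the members to -0.88, so the members lay below the median of all under either scaling. None of the 3 detected markers of other cell types passed at 48 h. miR-155-5p differed by 0.48 ± 0.17 (adjusted p = 0.106), miR-126-3p by 0.28 ± 0.25 (adjusted p = 0.495) and miR-145a-5p by 0.28 ± 0.26 (adjusted p = 0.507) in CsA against DMSO. The summed share of the leukocyte list ran from 0.000936 to 0.0215% of the signal in CsA and from 0.0103 to 0.018% in DMSO, and that of the endothelial list from 0.0141 to 0.0349% in CsA and from 0.015 to 0.044% in DMSO. That of the mesenchymal list ran from 0.000936 to 0.0277% in CsA and from 0.000622 to 0.0293% in DMSO, so the ranges overlapped for all 3 lists. Their part in the members' values was not tested.

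After 24 h of CsA the values of the b members and of miR-24-3p lay close to DMSO. miR-23b-3p read 0.37, -0.05, -0.02, -0.13 and -0.01 in CsA, against 0.21, -0.01, 0.31, -0.50 and -0.04 in DMSO. The CsA values lay inside the DMSO range but for the highest, and the difference was 0.037 ± 0.17. miR-24-3p read -0.18, -0.69, -0.73, -0.61 and -0.64 in CsA, against -0.36, -0.64, -0.24, -1.12 and -0.58 in DMSO. Its groups overlapped with a difference of 0.020 ± 0.21. miR-27b-3p read -0.39, -0.94, -0.97, -0.85 and -0.69 in CsA, against -0.49, -0.49, -0.42, -1.08 and -0.57 in DMSO. Here 4 of 5 CsA arrays lay below 4 of 5 DMSO arrays, and the difference was -0.16 ± 0.19.

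The a members lay higher on average in CsA at 24 h. miR-23a-3p read -1.65, -2.24, -2.44, -2.02 and -2.72 in CsA, against -1.95, -2.53, -2.12, -3.28 and -2.82 in DMSO. Its difference was 0.33 ± 0.37. miR-27a-3p read -1.81, -2.39, -2.89, -1.92 and -3.15 in CsA, against -2.18, -2.64, -2.38, -4.01 and -3.35 in DMSO, a difference of 0.48 ± 0.50. Both pairs of groups overlapped, and both differences were smaller than their standard errors. Within the 3 experiments both were positive, 0.19 to 0.47 and 0.36 to 0.66, but on the 3 slides they ran from -0.30 to 0.65 and from -0.21 to 1.08. All 5 members had an adjusted p of 1 (limma), where 0% of tested miRNAs were called, and 0 of 5 members and 19 of 289 miRNAs had an unadjusted p under 0.05. The median over the members was 0.04, beside 0.05 over all tested miRNAs.

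Whether the CsA difference changed with time was tested as an interaction. The difference at 48 h minus that at 24 h was -0.93 ± 0.67 for miR-27a-3p, -0.51 ± 0.29 for miR-24-3p, -0.48 ± 0.26 for miR-27b-3p, -0.42 ± 0.50 for miR-23a-3p and -0.21 ± 0.23 for miR-23b-3p. All were negative, but none passed (limma, adjusted p = 0.796 each), where 0% of tested miRNAs were called and 8 of 289 had an unadjusted p under 0.05, none a member.

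**Figure D2:**
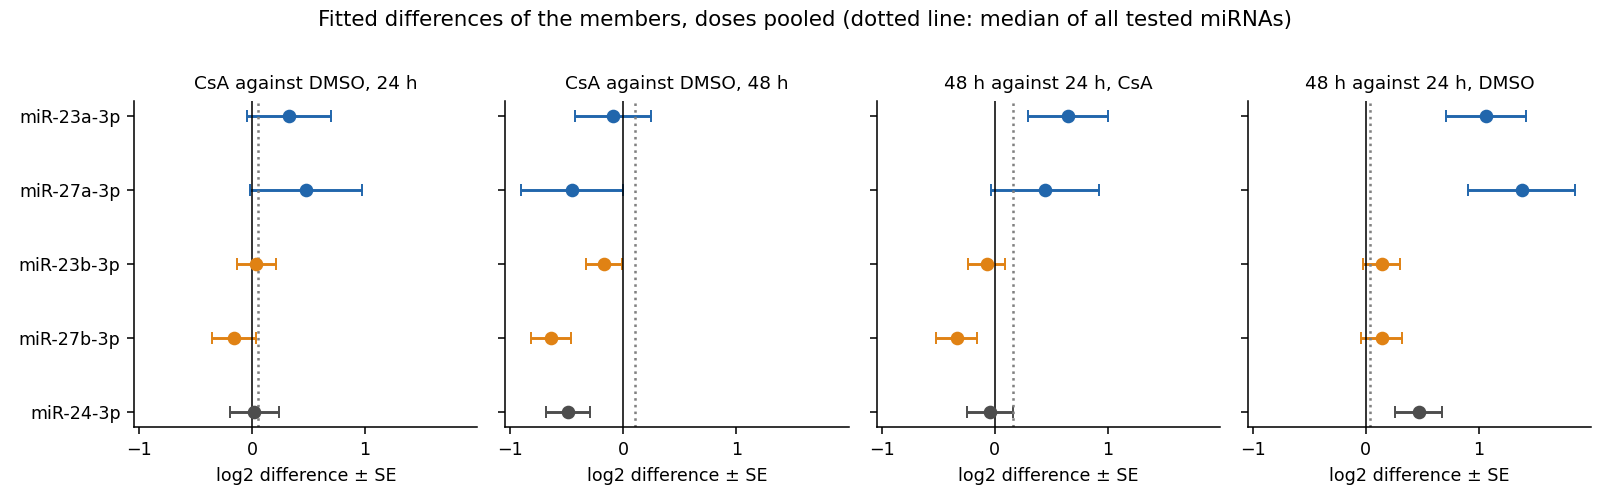
Fitted log2 difference ± SE (x axis) of each member (rows, a members in blue, b members in orange, miR-24-3p in grey) in 4 comparisons with doses pooled. The dotted line is the median of the 289 tested miRNAs. At 48 h in CsA miR-27b-3p and miR-24-3p lay farthest below 0 relative to their errors, and over time in DMSO the a members lay highest.

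The time in culture was examined in the solvent alone, with 6 DMSO arrays at 48 h against 5 at 24 h. miR-27a-3p averaged -1.53 ± 0.95 at 48 h and -2.91 ± 0.75 at 24 h (SD, n = 6 and 5). It ran from -2.69 to -0.24 at 48 h, against -4.01 to -2.18 at 24 h, so the 2 lowest arrays at 48 h lay among the 24 h arrays. The difference was 1.38 ± 0.48, or 2.60-fold (limma, adjusted p = 0.186). miR-23a-3p averaged -1.47 ± 0.75 at 48 h and -2.54 ± 0.54 at 24 h, running from -2.38 to -0.39 at 48 h, against -3.28 to -1.95 at 24 h. It also overlapped, with a difference of 1.07 ± 0.35, or 2.10-fold (limma, adjusted p = 0.186). Both a members were higher at 48 h within each of the 3 slides, by 0.29 to 1.91 for miR-23a-3p and by 0.36 to 2.61 for miR-27a-3p, and within each of the 3 experiments, by 0.72 to 1.15 and by 1.05 to 1.59. With the slide as a block the differences were 0.96 for miR-23a-3p (adjusted p = 0.289) and 1.26 for miR-27a-3p (adjusted p = 0.344). With the experiment number as a replicate block both passed, at 0.97 ± 0.23 for miR-23a-3p and 1.25 ± 0.30 for miR-27a-3p (limma, adjusted p = 0.0288 each). With the slide added to that block, neither was called.

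The other members differed less over time in DMSO. miR-24-3p averaged -0.12 ± 0.33 at 48 h and -0.59 ± 0.34 at 24 h, a difference of 0.47 ± 0.21 (limma, adjusted p = 0.331). miR-23b-3p differed by 0.14 ± 0.16 and miR-27b-3p by 0.14 ± 0.18 (limma, adjusted p = 0.933 each). No member was called without the block, where 0% of tested miRNAs were called, and 2 of 5 with it, where 3.46% were called. Without the block the unadjusted p was under 0.05 for 3 of 5 members, miR-23a-3p, miR-27a-3p and miR-24-3p, and for 38 of 289. The members' median was 0.47, beside 0.04 over all tested miRNAs. The hepatocyte marker miR-122-5p differed by -0.27 ± 0.092 over the same time (adjusted p = 0.186) and the endothelial marker miR-126-3p by -0.64 ± 0.26 (adjusted p = 0.307). Their part in the members' values was not tested.

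The same times were also compared in CsA. miR-23a-3p averaged -1.56 ± 0.63 at 48 h and -2.21 ± 0.41 at 24 h (SD, n = 6 and 5), a difference of 0.65 ± 0.35 (limma, adjusted p = 0.34). miR-27a-3p averaged -1.98 ± 0.89 at 48 h and -2.43 ± 0.59 at 24 h, a difference of 0.45 ± 0.48 (limma, adjusted p = 0.59). miR-27b-3p averaged -1.11 ± 0.38 at 48 h and -0.77 ± 0.24 at 24 h, a difference of -0.34 ± 0.18 (limma, adjusted p = 0.34). The groups overlapped for all 5 members, and none was called, where 0.346% of tested miRNAs were called. Unadjusted, 0 of 5 members and 49 of 289 miRNAs had a p under 0.05. The difference between these time contrasts in CsA and in DMSO is the interaction given above, which no member passed.

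The a and b members of a family were compared as a ratio within each array, which an array's scaling factor cannot change. The absolute ratio mixes probe brightness, so differences of the ratio are what it shows. The miR-27a-3p to miR-27b-3p ratio averaged -1.06 ± 0.81 (log2) in DMSO at 48 h and -2.30 ± 0.53 at 24 h (SD, n = 6 and 5). It ran from -1.97 to 0.17 at 48 h, against -2.93 to -1.70 at 24 h, and the groups overlapped. The difference was 1.24, with the a member higher relative to the b member at 48 h, which did not pass after adjustment (two-sided exact permutation test, p = 0.0195, adjusted p = 0.0584 over 6 tests). The miR-23a-3p to miR-23b-3p ratio averaged -1.61 ± 0.60 in DMSO at 48 h and -2.54 ± 0.26 at 24 h, with ranges of -2.38 to -0.68 and -2.79 to -2.16. Its difference was 0.93 (exact permutation, p = 0.00866, adjusted p = 0.0519). Within the 3 slides both differences were positive, 0.27 to 1.67 for miR-23 and 0.30 to 2.33 for miR-27, with 1 to 3 arrays of a group on a slide. Within the 3 experiments they were also positive, 0.59 to 1.22 for miR-23 and 0.84 to 1.58 for miR-27. With labels exchanged only within an experiment number, as a replicate block, both passed (exact permutation, adjusted p = 0.0278 each). Each unadjusted p, 0.00926, was the smallest that this exchange allows.

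CsA was set against DMSO with the same ratios. At 24 h the miR-27 ratio averaged -1.66 ± 0.54 in CsA and -2.30 ± 0.53 in DMSO (SD, n = 5 each), a difference of 0.64 (exact permutation, p = 0.103, adjusted p = 0.206). The miR-23 ratio averaged -2.25 ± 0.33 in CsA and -2.54 ± 0.26 in DMSO, a difference of 0.29 (exact permutation, p = 0.151, adjusted p = 0.226). At 48 h the miR-27 ratio differed by 0.19 (exact permutation, p = 0.647, adjusted p = 0.777) and the miR-23 ratio by 0.081 (exact permutation, p = 0.794). The ranges overlapped in all 6 tests, and the smallest p that these designs allow was 0.00216 at 48 h and between times, and 0.00794 at 24 h.

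**Figure D3:**
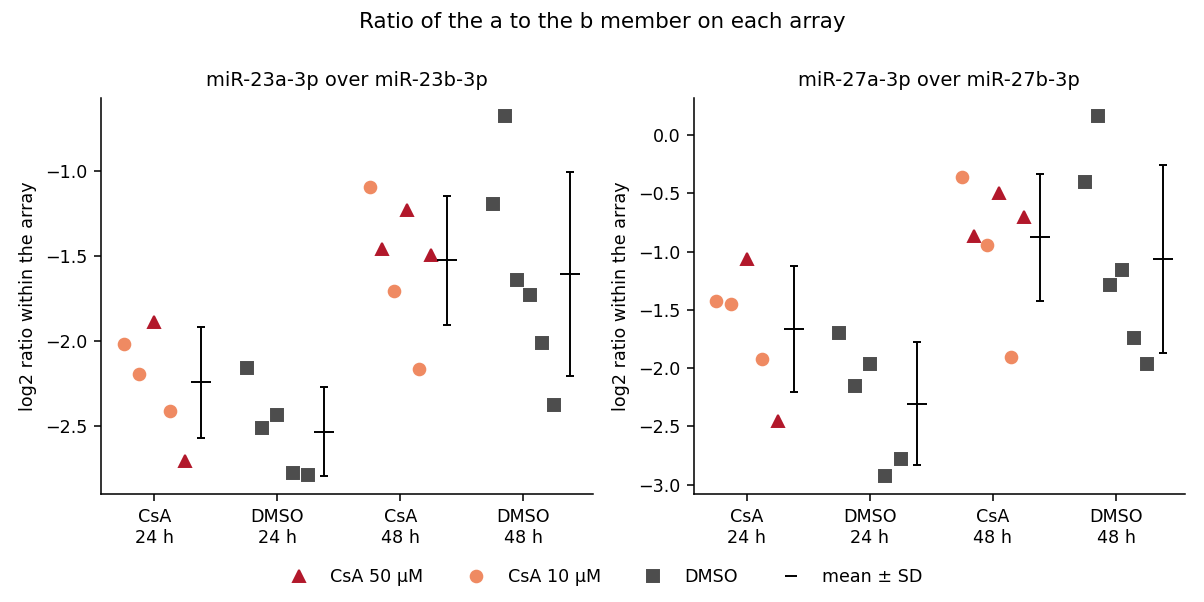
Log2 ratio of the a to the b member within each array (y axis) for miR-23 and miR-27, by treatment and time; each point is 1 array, symbols give the dose by the files' names, and bars give the mean ± SD. In DMSO the 48 h arrays reach -0.68 for miR-23 and 0.17 for miR-27, above every 24 h array, but their lowest arrays lie among the 24 h arrays.

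The experiment number that ends the sample descriptions ordered the values of the a members. miR-23a-3p averaged -1.26 over the 6 arrays numbered 1, -1.83 over the 8 numbered 2 and -2.47 over the 8 numbered 3. miR-27a-3p averaged -1.38, -1.97 and -2.97 over the same arrays. For both, number 1 was highest and number 3 lowest in each of the 4 groups of treatment and time. The order was looser for the b members. miR-23b-3p averaged 0.17, 0.086 and -0.13, with number 3 lowest in 2 of 4 groups, and miR-27b-3p averaged -0.62, -0.66 and -0.92, with number 3 lowest in 3 of 4. miR-24-3p averaged -0.24, -0.38 and -0.71, with number 3 lowest in 4 of 4. The gap between numbers 1 and 3 was thus 1.58 for miR-27a-3p and 1.21 for miR-23a-3p, against 0.47 for miR-24-3p and 0.30 for each b member. These values are a description, without a test.

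**Figure D4:**
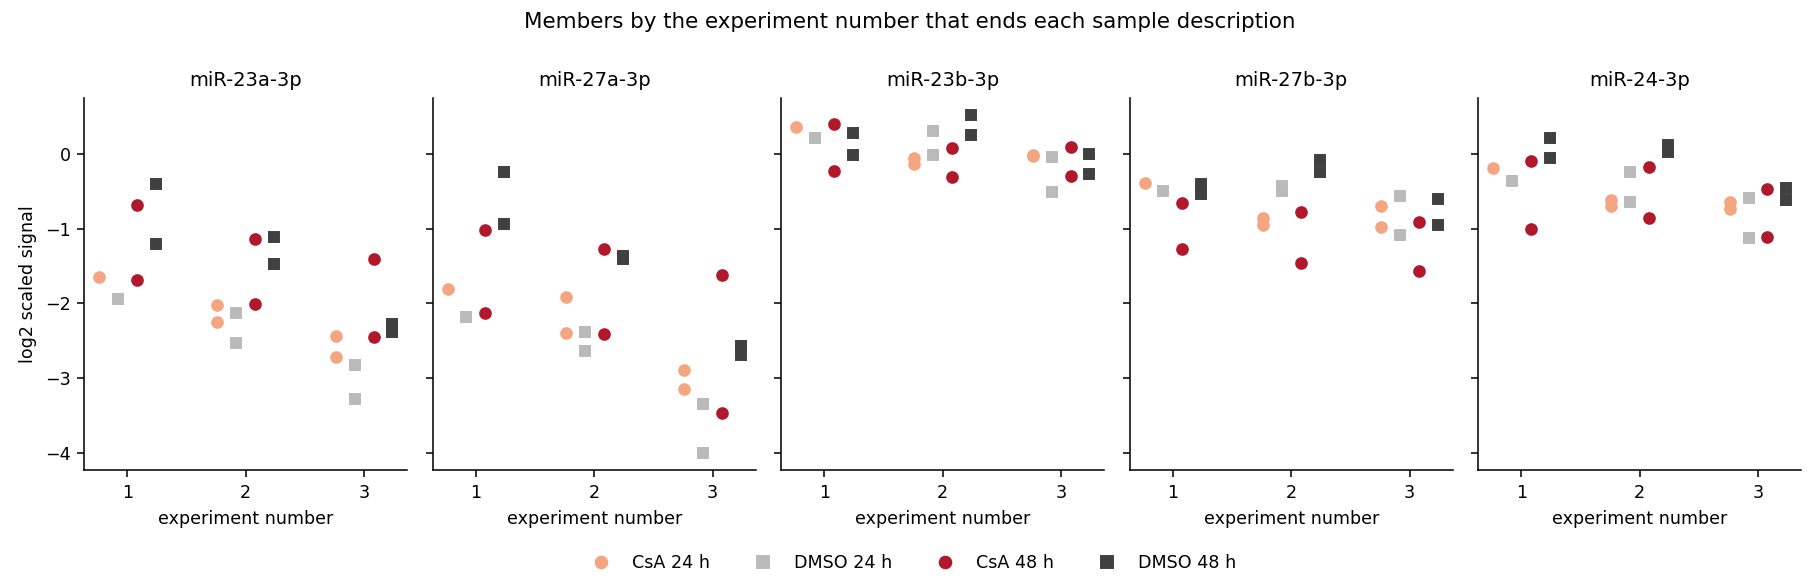
Log2 scaled signal of each member against the experiment number that ends the sample description; each point is 1 array, coloured by treatment and time. miR-23a-3p and miR-27a-3p step down with the number in the mean of every group, whereas the averages of miR-23b-3p lie between -0.13 and 0.17.

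At single doses the 48 h values depend on which set of sample names is used. Under the files' names, miR-27b-3p read -0.66, -1.46 and -1.57 on the arrays of 10 µM CsA, numbered 1 to 3, and -1.27, -0.77 and -0.91 on those of 50 µM. The DMSO arrays ran from -0.95 to -0.075, so 2 arrays at 10 µM and 1 at 50 µM lay below them all. The difference of 10 µM from DMSO was -0.76 ± 0.22, or 1.70-fold lower (limma, adjusted p = 0.0467), and that of 50 µM was -0.52 ± 0.22 (adjusted p = 0.576). miR-27b-3p was the 1 member of 5 called at 10 µM, where 6.23% of tested miRNAs were called, 16 higher and 2 lower, and 0.692% were called lower. The call was lost with the slide as a block (adjusted p = 0.178) and in 17 of the 22 fits that left out 1 array, with adjusted p from 0.00264 to 0.472. Without replicate 1 of 10 µM CsA at 48 h, miR-24-3p was called as well (-0.85, adjusted p = 0.0194). The share of all tested miRNAs called without that array is not given here, and the 6.23% belongs to the fit of all arrays. At 50 µM 0 of 5 members were called, where 0.346% of tested miRNAs were called, and 1 member, miR-27b-3p, and 18 of 289 miRNAs had an unadjusted p under 0.05.

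The remaining members were not called at either dose under the files' names. At 10 µM against DMSO the differences were -0.56 ± 0.25 for miR-24-3p, -0.76 ± 0.57 for miR-27a-3p, -0.24 ± 0.43 for miR-23a-3p and -0.20 ± 0.20 for miR-23b-3p, with adjusted p from 0.167 to 0.776. At 50 µM they were -0.42 ± 0.25 for miR-24-3p, -0.14 ± 0.57 for miR-27a-3p, 0.061 ± 0.43 for miR-23a-3p and -0.15 ± 0.20 for miR-23b-3p, with adjusted p of 0.576 or more. The members' median was -0.56 at 10 µM, beside 0.12 over all tested miRNAs, and -0.15 at 50 µM, beside 0.05.

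Under the value table's names, the arrays of 50 µM at 48 h held the lowest CsA values of every member. miR-27b-3p read -1.27, -1.46 and -1.57 at 50 µM and -0.66, -0.77 and -0.91 at 10 µM, against -0.95 to -0.075 in DMSO. All arrays at 50 µM lay below every DMSO array, and the difference was -0.97 ± 0.17, or 1.95-fold lower (limma, adjusted p = 0.000238). miR-24-3p read -1.01, -0.85 and -1.10 at 50 µM and -0.086, -0.17 and -0.46 at 10 µM, against -0.61 to 0.22 in DMSO. It too did not overlap with DMSO, with a difference of -0.86 ± 0.19, or 1.82-fold lower (limma, adjusted p = 0.0019). These were the 2 members of 5 called, where 37.7% of tested miRNAs were called, 79 higher and 30 lower. The share called lower was 10.4%, and groups that were lower without overlap made up 10% of tested miRNAs.

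The a members and miR-23b-3p overlapped with DMSO under these names. miR-27a-3p read -2.13, -2.41 and -3.47 at 50 µM, against -2.69 to -0.24 in DMSO, with a difference of -1.14 ± 0.51 (limma, adjusted p = 0.0846). miR-23a-3p read -1.69, -2.01 and -2.46 at 50 µM, against -2.38 to -0.39 in DMSO, with a difference of -0.58 ± 0.38 (limma, adjusted p = 0.23). miR-23b-3p read -0.23, -0.30 and -0.29 at 50 µM, against -0.26 to 0.53 in DMSO, with a difference of -0.41 ± 0.17 (limma, adjusted p = 0.0717). With the experiment number as a replicate block, all 5 members were called lower at 50 µM, where 53.6% of tested miRNAs were called, with adjusted p of 0.0187 for miR-23a-3p, 0.000535 for miR-27a-3p and 0.0328 for miR-23b-3p. The members' median was -0.86, beside 0.15 over all tested miRNAs. At 10 µM against DMSO the differences ran from -0.31 for miR-27b-3p to 0.40 for miR-23a-3p, and 0 of 5 members were called (limma, adjusted p = 1 each), where 1.04% of tested miRNAs were called. No member and 15 of 289 miRNAs had an unadjusted p under 0.05 there.

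The doses were also compared with each other at 48 h. Under the files' names, the difference of 50 µM from 10 µM was 0.62 ± 0.66 for miR-27a-3p, 0.31 ± 0.49 for miR-23a-3p, 0.25 ± 0.26 for miR-27b-3p, 0.14 ± 0.29 for miR-24-3p and 0.046 ± 0.23 for miR-23b-3p (limma, adjusted p = 1 each). The dose groups overlapped for all 5, and 0% of tested miRNAs were called. Unadjusted, no member and 17 of 289 miRNAs had a p under 0.05. Under the value table's names, each member was lower at 50 µM in each of the 3 experiment numbers, in 15 of 15 comparisons, by 0.38 to 1.86. Under the files' names this held in 5 of 15, all of them in experiment 1, whose CsA arrays carry the same name in both sources at 48 h.

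Under the value table's names, the fitted difference of 50 µM from 10 µM at 48 h was -1.37 ± 0.59 for miR-27a-3p (limma, adjusted p = 0.0911) and -0.97 ± 0.44 for miR-23a-3p (adjusted p = 0.108). It was -0.75 ± 0.22 for miR-24-3p (adjusted p = 0.0185), -0.65 ± 0.20 for miR-27b-3p (adjusted p = 0.0187) and -0.47 ± 0.20 for miR-23b-3p (adjusted p = 0.0897). So 2 of 5 members were called, where 28.4% of tested miRNAs were called, 61 higher and 21 lower, the share called lower being 7.27%. With the experiment number as a replicate block all 5 were called, where 40.5% of tested miRNAs were called, with adjusted p from 0.000611 for miR-27a-3p to 0.0417 for miR-23b-3p. All 5 members had dose groups that did not overlap, as did 25.6% of tested miRNAs that were lower and 29.1% that were higher. The members' median was -0.75, beside 0.12 over all tested miRNAs.

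**Figure D5:**
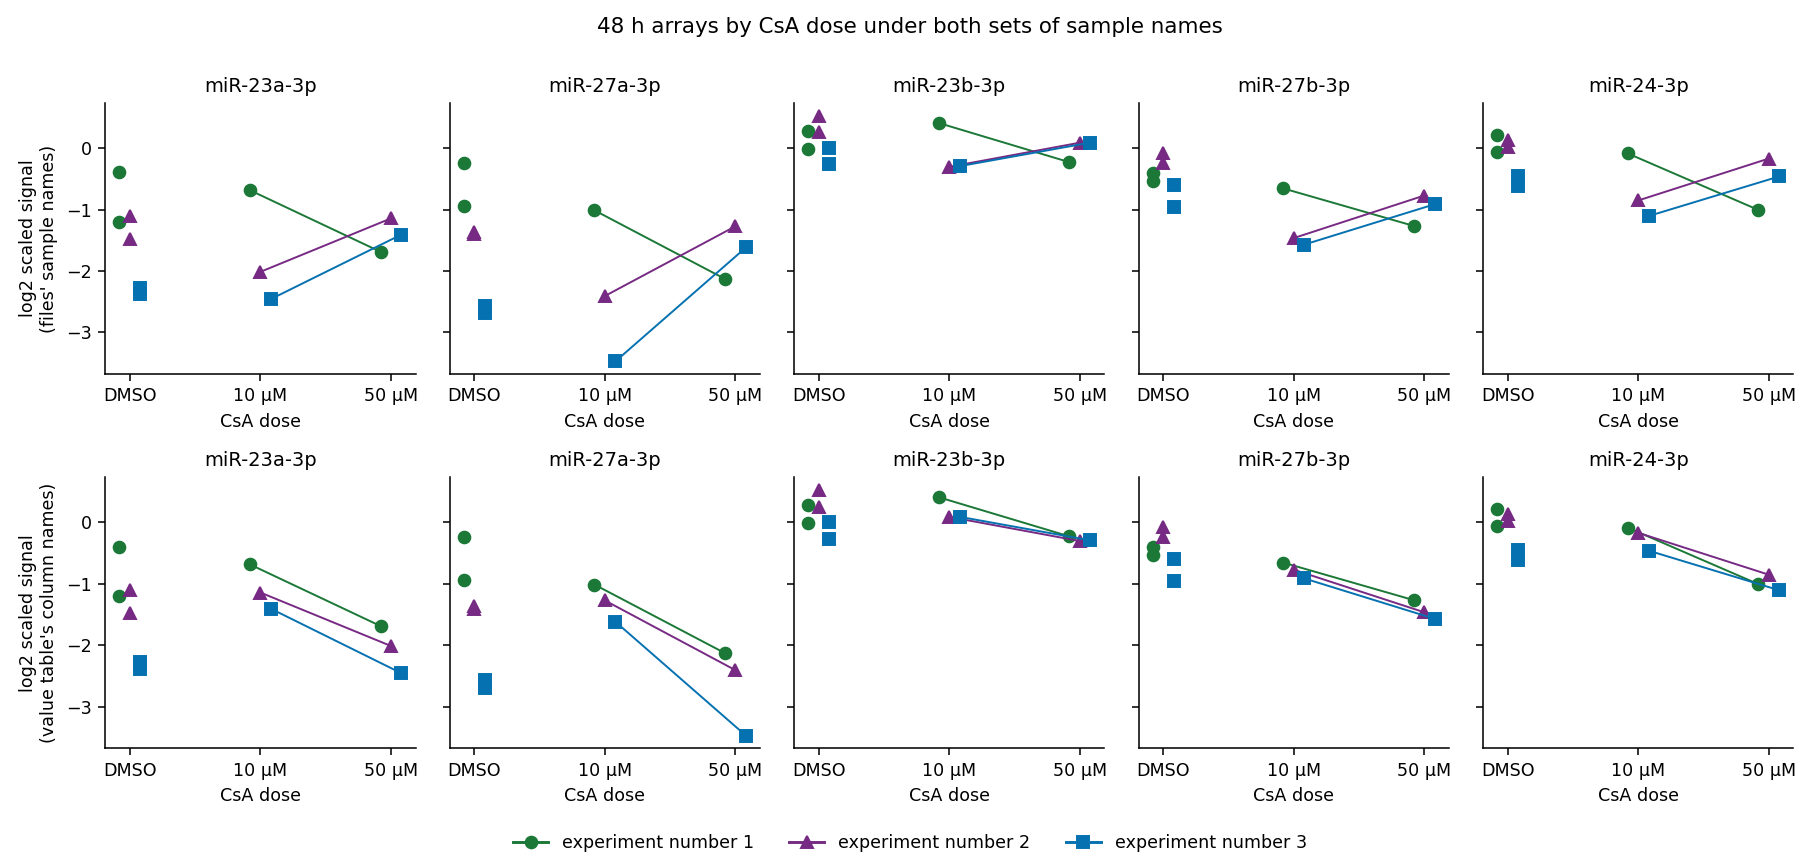
Log2 scaled signal of each member on the 48 h arrays by CsA dose, with doses from the files' sample names in the upper row and from the value table's column names in the lower row. Lines join the CsA arrays of the same experiment number. All lines fall towards 50 µM in the lower row, whereas in the upper row those of experiments 2 and 3 rise.

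At 24 h neither naming gave a called member. Under the files' names the difference from DMSO ran from -0.16 for miR-27b-3p to 0.55 for miR-27a-3p at 10 µM, and from -0.16 for miR-27b-3p to 0.38 for miR-27a-3p at 50 µM. Calls were 0% of tested miRNAs at both doses, and at an unadjusted p under 0.05 there were no members among the 21 and 7 miRNAs. Under the value table's names it ran from -0.035 for miR-27b-3p to 0.62 for miR-27a-3p at 10 µM, where 0% of tested miRNAs were called. At 50 µM it ran from -0.35 for miR-27b-3p to 0.27 for miR-27a-3p, where 3.81% were called, all of them higher. The direct contrast of 50 µM with 10 µM, with 2 and 3 arrays, ranged from -0.26 to -0.0053 over the members under the files' names and from -0.35 to -0.11 under the value table's names. It called 0% and 0.346% of tested miRNAs and no member. Under the value table's names miR-24-3p and miR-27b-3p did not overlap between the doses, lower at 50 µM, as 5.19% of tested miRNAs were.

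The other arms of the hairpins were nearly dark. Of 6 on the array (miR-23a-5p, miR-23b-5p, miR-24-1-5p, miR-24-2-5p, miR-27a-5p and miR-27b-5p), only miR-23a-5p was above background, on 5 of 22 arrays, 2 of them CsA at 48 h, 1 DMSO at 48 h and 2 CsA at 24 h. It differed by 0.29 ± 0.15 in CsA against DMSO at 48 h (limma, adjusted p = 0.216). Of 6 other miRNAs on the array that carry a member's seed bases 2 to 7 at or next to that position, only miR-128-3p was above background, on 2 arrays, and none was tested.

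Likeness over the 22 arrays was measured as Pearson's r of the log2 values, as a description, since the arrays share experiment numbers, slides and scaling. miR-23a-3p and miR-27a-3p were each other's closest match among the tested miRNAs, with r of 0.967. Outside the members, miR-23a-3p was most like miR-98-5p (r = 0.942), let-7e-5p (0.941) and miR-25-3p (0.934), and miR-27a-3p most like miR-93-5p (0.937), miR-98-5p (0.937) and miR-18a-5p (0.936). The b members, though cut from the same transcript, matched each other less closely, with r of 0.814, which 18 tested miRNAs exceeded for miR-23b-3p and 11 for miR-27b-3p. miR-23b-3p was most like miR-350-3p (0.917), miR-140-3p (0.893) and let-7a-5p (0.888), and miR-27b-3p most like miR-185-5p (0.934), miR-26a-5p (0.905) and miR-361-5p (0.884). Family members of different clusters were less alike, with r of 0.659 for miR-23a-3p and miR-23b-3p and of 0.486 for miR-27a-3p and miR-27b-3p. miR-24-3p, which both clusters encode, had r of 0.873 with miR-23b-3p, 0.835 with miR-27b-3p, 0.833 with miR-27a-3p and 0.776 with miR-23a-3p, and was most like miR-350-3p (0.954), miR-28a-5p (0.937) and miR-93-5p (0.934). The median r with all other tested miRNAs lay between -0.335 and -0.114 for the 5 members.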

How the data were processed

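The authors deposited 22 spot files, whose processed signal is a background-corrected intensity. The file headers name Feature Extraction version 10.7.3.1. The authors also deposited a table of log2 values, and the submitters' processing notes name R 2.15.2. From the intensities, spots not marked as outliers were averaged per probe. Each array was scaled to its 75th percentile, taken over the 281 probes that were above background everywhere, which ran from 188.5 to 605.4. After a floor of 0.0471 the log2 was taken. A probe was above background where a share of at least 0.5 of its spots were. The brightest probe stood for a miRNA, and the 289 miRNAs above background on at least 3 arrays were tested with limma 3.58.1 in R 4.3.3, by lmFit and eBayes, with Benjamini-Hochberg adjustment over all 289 and a threshold of 0.05. Pooled-dose comparisons used a model of 4 groups and single doses a model of 6 groups. The number of arrays limits the precision. The script was tested on simulated data. Whether the experiment numbers pair arrays was checked, over all tested miRNAs, by correlating the deviations of same-numbered arrays from their group means, separately for each comparison. All 3 correlations were over 0.1 for CsA against DMSO at 48 h (lowest 0.394), for 48 h against 24 h in DMSO (0.243) and in CsA (0.183) and, under the value table's names, for all 48 h dose comparisons (lowest 0.109). They were not for CsA against DMSO at 24 h (lowest 0.0646) or, under the files' names, for the 48 h dose comparisons (lowest -0.752 to -0.123). Where the numbers paired the arrays, a result with the number as a block is given if it changed a call.

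The ratios of a to b members were tested by exact permutation over arrays. The text names the members, their other arms, miRNAs sharing their seed, the 3 tested miRNAs most correlated with each member, and cell type markers. Members and lists were chosen with earlier results of these data known. Alternatives were scaling to all probes, normexp (offset 50) with quantile normalisation, quantile normalisation, the total gene signal, no filter, slide and experiment number as blocks, the value table's values and names, controls of the same dose series, other probes and leaving out each array.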

Additional observations from a re-analysis of the deposited data

Results flagged for a closer look

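In 28 groups of 5 or 6 arrays (5 members and 2 ratios in 4 groups of treatment and time), an array that stood apart from the others of its group was looked for with Dixon's test, and 3 were found; chance marks about 1 group in 20. In CsA at 24 h, miR-23b-3p reached 0.37 and miR-24-3p -0.18 on the same array, replicate 1 of 10 µM, the highest of the 5 arrays and the only one of experiment 1. In DMSO at 24 h, miR-27b-3p stood at -1.08 on replicate 5, the lowest of 5 arrays.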

How the results depend on the processing

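With both doses pooled at 48 h, 0 members were called by limma. Under scaling to the total gene signal 1 was called (miR-27b-3p, -0.71, adjusted p = 0.0294), but the share of all tested miRNAs called there is not given. With the experiment number as a replicate block 1 was called (miR-27b-3p, -0.64, adjusted p = 0.0352, with 8.3% of tested miRNAs called). Leaving out single arrays gave 0 to 2, without a share over all tested miRNAs to set beside it. Over 9 other settings miR-27b-3p ran from -1.06 to -0.50. For 48 h against 24 h in DMSO the replicate block called 2 members, miR-23a-3p (0.97) and miR-27a-3p (1.25, adjusted p = 0.0288 each), with 3.46% of tested miRNAs called. With the slide added to the block, no member was called in either comparison. Under normexp and quantile the time differences in DMSO were smaller, 0.58 for miR-23a-3p and 0.69 for miR-27a-3p (limma, adjusted p = 0.447 each). For 10 µM at 48 h, where 1 member was called, the count was 0 under scaling to all probes, normexp and quantile, quantile alone, total gene signal, no filter, the slide block, the value table's names, its values and names, controls of the same dose series, and the replicate block with the value table's names or with the slide, and 0 to 2 when single arrays were left out. For 50 µM at 48 h it was 2 with the value table's names (37.7% of tested miRNAs called) and 2 with its values and names, where no share is given. It was 5 with the replicate block and the value table's names, where miR-23a-3p reversed to -0.58 (53.6% of tested miRNAs called). For 50 µM against 10 µM at 48 h the counts were 2, 2 and 5 (28.4% called in the first, 40.5% in the last and no share given for the second). There miR-24-3p and miR-27b-3p reversed to -0.75 and -0.65 with the names and to -0.80 and -0.96 with the values and names. With the replicate block and the names, miR-23a-3p reversed to -0.97, miR-23b-3p to -0.47, miR-24-3p to -0.75, miR-27a-3p to -1.37 and miR-27b-3p to -0.65. The a to b ratios passed in DMSO over time with the other probe of the b member, at 0.93 for miR-23 and 1.29 for miR-27 (adjusted p = 0.0455 each), and with labels exchanged only within an experiment number as a replicate block, at 0.93 and 1.24 (adjusted p = 0.0278). The same block passed CsA against DMSO at 24 h, at 0.29 and 0.64 (adjusted p = 0.0417). With this block each unadjusted p was the smallest that the exchange allows, 0.00926 over time and 0.0278 at 24 h (exact permutation). Over time in DMSO neither ratio passed with the other probe of the a member, at 0.88 for miR-23 (exact permutation, adjusted p = 0.0649) and 1.01 for miR-27 (adjusted p = 0.0844). In DMSO at 24 h the lowest and highest miR-23 ratios, -4.37 and -3.90, had that probe at the floor of -4.41. So did the lowest miR-27 ratio, -3.84. The part of the floor in these time differences was not tested. Under normexp and quantile these time differences were smaller, 0.50 and 0.65, and did not pass (exact permutation, adjusted p = 0.052 each). Without single arrays the time differences ran from 0.74 to 1.08 and from 0.99 to 1.42, the highest without replicate 6 of DMSO at 48 h, where both passed (adjusted p = 0.0476). That 24 h comparison is one where the numbers did not pair the arrays. The replicate block changed no other call of a member. Where a value was uncalled both ways, 110 of 1889 changed sign. The cause of these changes was not tested. The number of arrays, 2 to 6 in a group, and unsettled dose names limit every single-dose value.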
